A study of Rattus norvegicus with 6 samples.

Results

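The genes described here make cholesterol and fatty acids, desaturate fatty acids and move sterols within and out of the cell. They were chosen by name from a list of 44 symbols sorted into 6 roles. Of these, 37 had a row among the 17221 transcript rows of the table, and 36 were among the 9820 features that passed the filter on low values. The 7 names without a row of that symbol were Acat2, Mvk, Sc4mol, Sc5d, Srebf1, Fasn and Npc1. Sc4mol and Sc5d are other names of genes present as Msmo1 and Sc5dl. The remaining member, Acly (ATP citrate lyase), was not tested: it has 2 rows on 1 span of chromosome 10, the stronger of which held 0 to 3 reads a library, and the counting method dropped reads shared between overlapping rows.

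Poly(A)-selected RNA was sequenced from cultured synovial fibroblast-like cells, which come from the lining tissue of joints, of female Wistar rats with collagen-induced arthritis, a rat model of rheumatoid arthritis. The sample descriptions code the cells RA1 and RA2 in each of 3 culture conditions, which was read as cells of 2 rats (rat 1 and rat 2) split over the conditions. This gave 6 libraries, 2 per condition. The serum in the medium was fetal bovine (FBS), that of untreated rats (MS-), or that of rats treated for 18 days with subcutaneous mechanical stimulation by needle (MS+), which the labels call acupuncture. The labels do not give the number of serum donors, so a replicate is a source of cells, and one label field calls the MS- rats healthy where others call them arthritic.

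Cholesterol is built from acetyl-CoA through mevalonate and squalene. Its synthesis is set largely by the transcription factor SREBP-2, which is carried from the endoplasmic reticulum by Scap when sterols are scarce and is held there by Insig proteins when they are plentiful. Oxidised sterols activate the liver X receptors (LXR), which raise sterol efflux pumps and also desaturase genes, while SREBP-1 and LXR share control of fatty acid synthesis. Fibroblasts can obtain sterols and polyunsaturated fatty acids from the serum in their medium as well as by synthesis.

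The libraries held 5463316 to 5991889 reads, and 9678 to 9749 features reached 1 CPM (reads scaled to library size, TMM-normalised by the authors). A count of 3 reads corresponded to 0.491 to 0.551 CPM. Of 14 fibroblast markers, 13 had a row, and their summed level was 81191 to 88044 CPM in FBS, 62900 to 65497 in MS- and 71361 to 74049 in MS+. Collagen and Vim rows carried most of it, while Dcn and Lum, which fibroblasts of tissue express, had 0 to 5 reads and Prg4, a marker of lining cells, had 7 to 20. Of 10 macrophage markers with a row, 6 were at 0 in every library, and the summed level of 13.8 to 20.9 CPM was mostly Cd14. Endothelial markers summed to 0.181 to 1.47 CPM, and the 7 lymphocyte and blood markers with a row were at 0. In bulk RNA, fewer cells of a type and less RNA per cell cannot be told apart.

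The 250 bases before the transcription start are shown for 6 members. They were chosen from the 7 members called between MS+ and MS- further on, with the rat in the fit. Sqle, also called, had no promoter sequence. The 6 include the neighbouring genes Fads1 and Fads2 and the neighbouring genes Scd and Scd1. The sequences are those of RefSeq, assembly GRCr8, which is not the rn4 build of the table, and were matched by accession. Each is read 5′ to 3′ on the strand of the gene. Capitals mark the letters GGGCGG (a GC box), CCAAT or CACGTG (an E-box) on either strand, and no capitals of one motif overlap those of another.
Fads1 (GRCr8 chr1:216252442-216252691, plus strand): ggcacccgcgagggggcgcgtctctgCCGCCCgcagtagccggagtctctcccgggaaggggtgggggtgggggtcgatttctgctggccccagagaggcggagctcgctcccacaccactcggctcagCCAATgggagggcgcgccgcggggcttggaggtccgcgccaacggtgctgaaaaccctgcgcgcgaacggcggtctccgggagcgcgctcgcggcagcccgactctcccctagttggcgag
Fads2 (GRCr8 chr1:216172034-216172283, minus strand): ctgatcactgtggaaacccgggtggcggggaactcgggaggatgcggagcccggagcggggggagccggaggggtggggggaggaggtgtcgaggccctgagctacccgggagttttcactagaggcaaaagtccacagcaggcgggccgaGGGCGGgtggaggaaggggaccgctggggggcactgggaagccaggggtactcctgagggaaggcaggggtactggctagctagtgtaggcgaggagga
Scd (GRCr8 chr1:253118127-253118376, plus strand): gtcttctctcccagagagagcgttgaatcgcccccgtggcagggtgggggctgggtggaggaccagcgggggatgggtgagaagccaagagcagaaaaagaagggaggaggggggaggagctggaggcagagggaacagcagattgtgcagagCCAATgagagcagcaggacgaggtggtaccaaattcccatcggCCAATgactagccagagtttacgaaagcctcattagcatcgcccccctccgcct
Scd1 (GRCr8 chr1:253231732-253231981, minus strand): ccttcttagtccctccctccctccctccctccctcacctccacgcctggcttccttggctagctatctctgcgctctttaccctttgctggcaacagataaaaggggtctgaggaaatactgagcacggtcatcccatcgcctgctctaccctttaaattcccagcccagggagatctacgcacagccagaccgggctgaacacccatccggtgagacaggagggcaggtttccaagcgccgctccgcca
Lss (GRCr8 chr20:12118231-12118480, minus strand): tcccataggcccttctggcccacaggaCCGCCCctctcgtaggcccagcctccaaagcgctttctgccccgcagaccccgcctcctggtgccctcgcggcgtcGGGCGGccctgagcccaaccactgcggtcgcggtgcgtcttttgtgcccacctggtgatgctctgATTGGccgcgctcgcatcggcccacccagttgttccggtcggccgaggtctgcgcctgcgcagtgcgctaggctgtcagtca
Insig1 (GRCr8 chr4:8057770-8058019, minus strand): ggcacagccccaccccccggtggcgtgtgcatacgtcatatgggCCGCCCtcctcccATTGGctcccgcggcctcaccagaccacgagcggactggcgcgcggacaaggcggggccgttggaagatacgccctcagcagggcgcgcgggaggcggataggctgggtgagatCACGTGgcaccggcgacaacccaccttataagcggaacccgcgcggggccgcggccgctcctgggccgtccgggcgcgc
Of 37 members, 30 had such a promoter. GGGCGG was found in 22 of 30 (73.3%), against 32.4% of the 27457 promoters of the table and 60.4% of the 7474 that belong to tested features. CCAAT was also found in 22 of 30 (73.3%), against 34.3% of all promoters and 36.3% of those of tested features. CACGTG was found in 5 of 30 (16.7%), against 5.79% and 8.71%. The sterol element TCACNCCAC was in 0 of 30 on either strand, against 0.976% and 1.03%, which says only that these letters do not occur in these windows. Fads1, Lss and Insig1 held both a GC box and a CCAAT box, Scd held CCAAT in 2 places, and Scd1 held none of the 4 motifs. These matches are descriptions of sequence and not evidence of binding.

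The comparison of MS+ with MS- sets the serum of stimulated rats against that of untreated rats. The study's methods place the MS- draw before the start of therapy. Stimulation and time of disease therefore cannot be told apart here. Without a term for the rat, 0 of 36 members passed a Benjamini-Hochberg adjusted p of 0.05 over all features in limma, where 0.0204% of all features did, and 3 members (8.33%) were at unadjusted p under 0.05, with 2 higher and 1 lower, against 14.7% of all features. When the rat entered as a block, 7 of 36 passed (19.4%), against 10.1% of all features. The 5 that rose in MS+ with the block were Fads1, Fads2, Scd, Scd1 and Lss, and the 2 that fell were Sqle and Insig1. With edgeR and the block the same 7 passed. Under the rule of the study (unadjusted p under 0.05, a change of at least 2-fold, mean level of 1 CPM or above), 0 members and 1.24% of all features passed. The median log2 fold change of the 36 members was -0.10, and that of all features was -0.01. The MS+ and MS- libraries did not overlap for 2 members higher and 7 lower in MS+, and for 45.8% of all features. With 2 libraries a group such separation is common. Fold changes are given on the log2(CPM + 1) scale, where changes of weakly expressed genes come out too small, and values in pairs are those of rat 1 and rat 2.

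The fatty acid group held most of the genes that rose. Of its 8 tested members 6 were higher and 2 lower in MS+ than in MS-, with a median log2 fold change of 0.41 (all features -0.01). With the block 4 of 8 rose and 0 fell, where 10.1% of all features passed. Fads1, the delta-5 desaturase that makes arachidonic acid, measured 230 and 247 CPM in MS+, 177 and 138 in MS-, and 164 and 179 in FBS. Both MS+ libraries lay above all 4 others. Its log2 fold change over MS- was 0.60 (SE 0.13), and limma gave an adjusted p of 0.144 unblocked and 0.00229 blocked. DESeq2 without the block called it (adjusted p 0.0365). Over FBS it was 0.47 (adjusted p 0.0743 without the block and 0.00375 with it).

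Fads2, the delta-6 desaturase that acts before Fads1, measured 24.0 and 50.1 CPM in MS+, 16.6 and 26.2 in MS-, and 19.8 and 31.8 in FBS. The groups overlapped because rat 2 was higher than rat 1 throughout, but within each rat MS+ was highest and MS- lowest. The log2 fold change over MS- was 0.50 in rat 1 and 0.91 in rat 2, or 0.70 in the fit (SE 0.39 without the block and 0.14 with it, adjusted p 0.472 and 0.00574). In the unblocked fit, from which all such values here come and where leaving out 1 library leaves the rats unbalanced, it was 0.188 when that library was MS+ replicate 2, 1.22 for MS+ replicate 1 and 0.392 for MS- replicate 1. Over FBS it was 0.45 (adjusted p 0.5 and 0.0290). It was 0.121 without FBS replicate 1, 0.780 without FBS replicate 2 and 0.967 without MS+ replicate 1, and it turned to -0.0664 without MS+ replicate 2. In rn4, Fads1 (NM_053445, plus strand) spans 212670792 to 212685716 of chromosome 1 and Fads2 (NM_031344, minus strand) 212512691 to 212542621.

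Scd and Scd1 encode stearoyl-CoA desaturases, which make monounsaturated fatty acids. Scd (NM_031841, chromosome 1, 249358105 to 249371164, plus strand) is named Scd2 in the newer RefSeq table, and Scd1 (NM_139192, chromosome 1, 249458860 to 249471460, minus strand) is named Scd there. Their sequences are close, so the split of reads between them is uncertain. Scd measured 161 and 350 CPM in FBS, 106 and 175 in MS-, and 143 and 262 in MS+. Scd1 measured 17.7 and 44.3 CPM in FBS, 8.05 and 16.8 in MS-, and 11.7 and 26.4 in MS+. For Scd the groups overlapped. For Scd1 both FBS libraries lay just above both of MS-, and MS+ overlapped both groups. Within each rat the level of both genes was highest in FBS, intermediate in MS+ and lowest in MS-.

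In MS+ over MS-, Scd had a log2 fold change of 0.51 (SE 0.43 without the block and 0.10 with it, adjusted p 0.655 and 0.00344). Scd1 had 0.56 (SE 0.54 and 0.16, adjusted p 0.699 and 0.0341). The FBS to MS- contrast gave the smallest adjusted p of any member over the 3 comparisons, with the block. There Scd was at -0.80 (adjusted p 0.352 without the block and 2.19e-05 with it) and Scd1 at -1.20 (0.268 and 5.01e-05). In MS+ over FBS, Scd was at -0.29 (0.709 and 0.0334) and Scd1 at -0.64 (0.493 and 0.00644).

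The unblocked values of both desaturases moved widely when 1 library was left out. In MS+ over MS-, Scd was 0.0762 when MS+ replicate 2 was left out and 0.941 when it was MS+ replicate 1, and it was 0.148 when MS- replicate 1 was absent and 0.868 when it was MS- replicate 2. Scd1 was 0.00175, 1.11, 0.0681 and 1.05 in the same order. Within a rat, where no such imbalance enters, MS+ over MS- was 0.44 in rat 1 and 0.58 in rat 2 for Scd, and 0.49 and 0.62 for Scd1. In MS+ over FBS, Scd turned to 0.266 without FBS replicate 2 and 0.142 without MS+ replicate 1, and was -0.847 without FBS replicate 1 and -0.723 without MS+ replicate 2. Scd1 was -0.000564 and -0.0843 under the first pair of these and -1.28 and -1.19 under the second. In MS- over FBS, Scd was -0.243 without FBS replicate 2, -1.36 without FBS replicate 1 and -0.439 without MS- replicate 1, and Scd1 was -0.557, -1.83 and -0.707. Within a rat, MS- over FBS was -0.60 in rat 1 and -0.996 in rat 2 for Scd, and -1.05 and -1.35 for Scd1.

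The summed fibroblast markers had the same order of sera as these genes, highest in FBS and lowest in MS-. Single markers differed: Col1a1, Col1a2, Col3a1 and Thy1 had this order in each rat, while Vim, Cd55 and Fap were lowest in FBS in each rat. The part of these markers in the difference was not tested. Adipocyte markers, of which all 8 had a row, 5 held at most 3 reads in every library and Cidec and Retn were at 0, summed to 1.15 and 2.32 CPM in FBS, 2.74 and 4.88 in MS-, and 2.70 and 3.49 in MS+.

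Of the other members of the fatty acid group, Acaca, acetyl-CoA carboxylase and the first committed step of fatty acid synthesis, moved the other way. It measured 45.2 and 58.7 CPM in FBS, 37.7 and 46.3 in MS-, and 35.0 and 32.7 in MS+. Both MS+ libraries lay below all 4 others. Acaca was at -0.59 in MS+ over FBS (SE 0.16, adjusted p 0.0716 without the block and 0.00289 with it) and at -0.30 in MS+ over MS- (0.473 and 0.167). Acss2, Elovl5 and Elovl6, which activate acetate and elongate fatty acids, passed the threshold in no comparison with or without the block, and their log2 fold changes over the 3 comparisons ran from -0.43 (Acss2, MS- over FBS) to 0.31 (Acss2, MS+ over MS-).

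**Figure D1:**
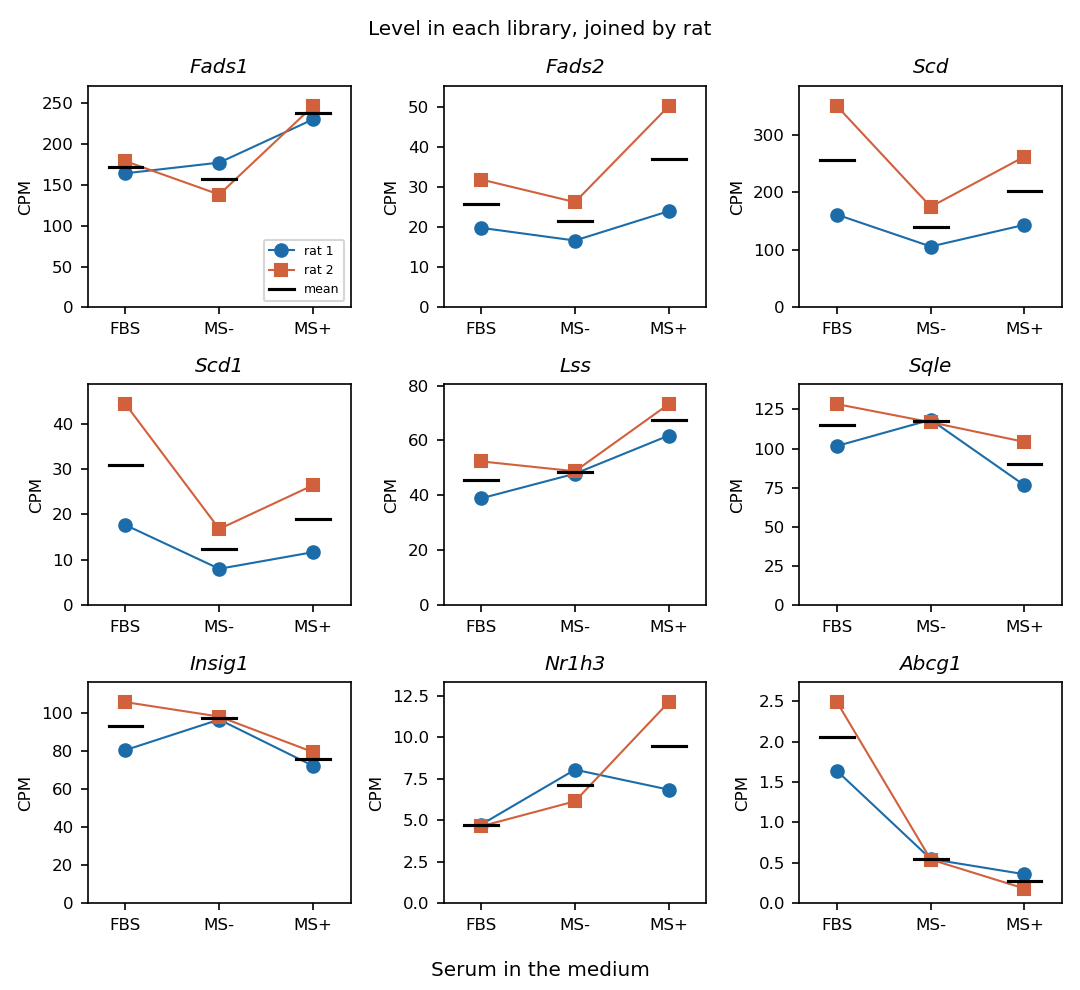
Level of 9 members in CPM (vertical axes, from 0) by the serum in the medium (horizontal axes), with 1 point per library, lines joining the libraries of 1 rat and black bars at the mean of 2. Fads1, Fads2 and Lss are highest in MS+ in both rats, Scd and Scd1 run FBS, MS+, MS- from high to low in both rats, and Abcg1 lies under 1 CPM in all 4 libraries of rat serum.

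The steps from squalene to cholesterol gave 2 calls in opposite directions. Of 10 tested members 8 were lower and 2 higher in MS+ than in MS- (median -0.19). With the block 1 of 10 rose and 1 fell, where 10.1% of all features passed. Lss, lanosterol synthase, which closes the sterol ring, measured 61.8 and 73.2 CPM in MS+, 47.9 and 48.8 in MS-, and 39.0 and 52.4 in FBS. The 2 MS+ libraries were the highest of the 6. Its log2 fold change was 0.47 over MS- (SE 0.16, adjusted p 0.262 without the block and 0.0182 with it) and 0.56 over FBS (adjusted p 0.0785 and 0.00192, and 0.355 on the log2 scale without FBS replicate 1).

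Sqle, squalene epoxidase, the oxygen-requiring step just before Lss, measured 76.6 and 104 CPM in MS+, 118 and 117 in MS-, and 102 and 128 in FBS. MS+ was below MS- in both rats, and the MS+ library of rat 2 lay just above the FBS library of rat 1. Sqle was at -0.39 over MS- (SE 0.17, adjusted p 0.356 without the block and 0.0313 with it) and at -0.35 over FBS (0.239 and 0.0235). Without MS+ replicate 1 these were -0.172 and -0.131, without MS+ replicate 2 they were -0.612 and -0.571, and over FBS it was -0.184 without FBS replicate 2. The steps that follow one another thus had called changes of opposite sign in both comparisons of MS+, with the block.

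Late in the pathway, Ebp and Dhcr7 were lower in rat serum. Ebp, the sterol isomerase, measured 13.7 and 16.7 CPM in MS+, 17.6 and 19.2 in MS-, and 20.0 and 23.5 in FBS. Its 3 groups did not overlap, in the order FBS, MS-, MS+, yet only the outer pair passed: -0.49 in MS+ over FBS (adjusted p 0.113 without the block and 0.0244 with it). Dhcr7, which makes cholesterol in the last step of one branch, measured 50.1 and 52.9 CPM in FBS, 34.6 and 36.2 in MS-, and 28.3 and 45.1 in MS+. All 4 libraries of rat serum lay below both of FBS. Dhcr7 was at -0.53 in MS- over FBS (adjusted p 0.205 and 0.0159) and -0.51 in MS+ over FBS (0.166 and 0.0141), the latter -0.185 without MS+ replicate 1 and -0.841 without MS+ replicate 2, while MS+ over MS- gave 0.02 (95% interval -0.47 to 0.51 without the block). Cyp51, Tm7sf2, Msmo1, Nsdhl, Hsd17b7 and Sc5dl passed in no comparison, and their log2 fold changes ran from -0.24 (Hsd17b7, MS+ over MS-) to 0.22 (Sc5dl, MS- over FBS). Hsd17b7 overlaps LOC100366054, so its count is uncertain.

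The mevalonate group, which makes squalene from acetyl-CoA units, gave no call with or without the block. With the block, 10.1% of all features passed in MS+ over MS-, 28.2% in MS+ over FBS and 20.5% in MS- over FBS. All 6 of its tested members were lower in MS+ than in MS-, with a median log2 fold change of -0.08, and 4 of 6 were lower in both rats. Hmgcs1, HMG-CoA synthase, measured 106 and 146 CPM in MS+, 117 and 153 in MS-, and 106 and 178 in FBS. Its levels sorted by rat and not by serum, and the log2 fold change in MS+ over MS- was -0.11 (95% interval -0.74 to 0.53 without the block and -0.32 to 0.10 with it). Idi1, which overlaps Wdr37 and is therefore uncertain, had the widest range of the group, from -0.28 in MS+ over MS- to 0.41 in MS- over FBS (adjusted p with the block 0.238 and 0.0530). Mvd reached -0.41 in MS+ over FBS (0.0556 with the block in limma, called in edgeR with the block). Pmvk, Fdps and Fdft1, which phosphorylate mevalonate and build farnesyl diphosphate and squalene, ran from -0.24 (Pmvk, MS+ over FBS) to -0.03 (Fdft1, MS- over FBS).

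Among the 4 tested regulators of SREBP, all were lower in MS+ than in MS- (median -0.20). With the block Insig1 alone fell, where 10.1% of all features passed. Insig1, a sterol-sensing retention protein and itself an SREBP target, measured 72.4 and 79.7 CPM in MS+, 96.8 and 98.3 in MS-, and 80.7 and 106 in FBS. Both MS+ libraries were the lowest of the 6. The change over MS- was -0.36 (SE 0.14, adjusted p 0.314 without the block and 0.0401 with it), and over FBS it was -0.28 (0.251 and 0.0554), which edgeR with the block called. Insig2, its paralog, measured 9.73 and 6.61 CPM in MS+, 8.05 and 9.76 in MS-, and 6.55 and 6.80 in FBS, and the rats went opposite ways between MS+ and MS- (0.25 and -0.50).

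Srebf2, the gene of SREBP-2, measured 184 and 209 CPM in MS+, 223 and 229 in MS-, and 191 and 236 in FBS. Scap, the carrier of SREBP, measured 187 and 162 CPM in MS+, 218 and 186 in MS-, and 197 and 151 in FBS. Both were lower in MS+ than in MS- in each rat, Srebf2 at -0.20 (adjusted p 0.524 without the block and 0.165 with it) and Scap at -0.21 (0.6 and 0.143), and neither passed. The span of Srebf2 contains Mir33, so reads there are uncertain.

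With the block 1 of the 5 tested members of LXR signalling and efflux rose and 2 fell in MS+ over FBS. There 28.2% of all features passed. In MS+ over MS-, 0 of 5 passed with the block, against 10.1% of all features. Nr1h3 (LXR alpha) measured 4.75 and 4.64 CPM in FBS, 8.05 and 6.15 in MS-, and 6.85 and 12.1 in MS+. All 4 libraries of rat serum lay above both of FBS. It was at 0.83 in MS+ over FBS (SE 0.28, adjusted p 0.114 without the block and 0.0207 with it, and a change of 0.462 without MS+ replicate 2) and at 0.50 in MS- over FBS (0.373 and 0.185). Nr1h2 (LXR beta) measured 65.8 and 68.0 CPM in FBS, 73.7 and 67.1 in MS-, and 69.2 and 69.0 in MS+, and its 95% interval in MS+ over FBS was -0.19 to 0.28 without the block.

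Abcg1, a sterol efflux pump and a known LXR target, was the only member past the adjusted threshold in limma without the block. It measured 1.64 and 2.49 CPM in FBS, 0.549 and 0.542 in MS-, and 0.360 and 0.184 in MS+, or 25 reads in FBS, 6 in MS- and 3 in MS+ over 2 libraries each. Both FBS libraries lay above all others, but the gene passed the filter only through FBS, so a difference from FBS was built into its being tested. The log2 fold change was -1.26 in MS+ over FBS (SE 0.29, adjusted p 0.0424 without the block and 0.00732 with it) and -0.97 in MS- over FBS (0.118 and 0.0392). From the reads, the ratio of MS+ to FBS was 0.133 (exact 95% interval 0.0256 to 0.434), that of MS- to FBS 0.265 (0.0889 to 0.662) and that of MS+ to MS- 0.5 (0.0809 to 2.34), where the intervals cover counting error only. The call without the block was lost on leaving out each of the 6 libraries in turn (adjusted p 0.0726 to 0.174).

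Abca1, the other efflux pump, measured 7.37 and 5.80 CPM in FBS, 4.21 and 4.70 in MS-, and 3.60 and 4.22 in MS+. It lay lower in all 4 libraries of rat serum, but did not pass in MS+ over FBS (-0.62, adjusted p 0.120 without the block and 0.0584 with it). Mylip, an LXR-induced ubiquitin ligase that degrades lipoprotein receptors, measured 3.60 and 10.6 CPM in FBS, 3.11 and 6.15 in MS-, and 2.16 and 3.85 in MS+. The groups overlapped, and within each rat the order was FBS, MS-, MS+. Mylip was at -0.90 in MS+ over FBS (adjusted p 0.287 and 0.0131), or -1.57 without FBS replicate 1, -0.232 without FBS replicate 2 and -0.591 without MS+ replicate 1.

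In intracellular sterol handling, Stard4, a soluble sterol carrier, measured 6.71 and 10.8 CPM in FBS, 10.1 and 15.4 in MS-, and 11.5 and 16.2 in MS+. It was at 0.62 in MS+ over FBS (adjusted p 0.230 without the block and 0.0165 with it) and at 0.50 in MS- over FBS (0.399 and 0.0611). The first was 0.316 without FBS replicate 1 and 0.395 without MS+ replicate 2. Npc2, the lysosomal protein that hands cholesterol on to the membrane, measured 431 and 378 CPM in FBS, 561 and 421 in MS-, and 546 and 382 in MS+. In MS- over FBS it was at 0.27 (0.506 and 0.0431), and edgeR with the block did not call it (adjusted p 0.0614). It was 0.0608 when MS- replicate 1 was left out, 0.474 for MS- replicate 2 and 0.174 for FBS replicate 2. Soat1, which esterifies cholesterol for storage, passed in no comparison and ran from -0.10 in MS- over FBS to 0.14 in MS+ over MS-.

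The comparisons with FBS share the FBS libraries and are given side by side. In MS+ over FBS, 1 of 36 members passed without the block (2.78%), against 9.61% of all features. At unadjusted p under 0.05 there were 8 (22.2%), against 27.5%, and 13 passed with it (36.1%), against 28.2%. With the block 5 rose (Lss, Fads1, Fads2, Nr1h3 and Stard4) and 8 fell (Sqle, Ebp, Dhcr7, Acaca, Scd1, Scd, Abcg1 and Mylip). In MS- over FBS, 0 of 36 members passed without the block, against 4.81% of all features, and at unadjusted p under 0.05 there were 0 higher and 2 lower (5.56%), against 21.1%. With the block 5 passed (13.9%), against 20.5%, of which Npc2 rose and Dhcr7, Scd1, Scd and Abcg1 fell. The rule of the study called Abcg1 alone in MS+ over FBS, against 5.3% of all features, and 0 members in MS- over FBS, against 3.62%. The median of the 36 members was -0.15 in MS+ over FBS and -0.03 in MS- over FBS, and that of all features was 0.00 and 0.01. In MS+ over FBS the groups did not overlap for 5 members that were higher and 7 lower, against 56.7% of all features. In MS- over FBS these were 3 and 7, against 51.6%.

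**Figure D2:**
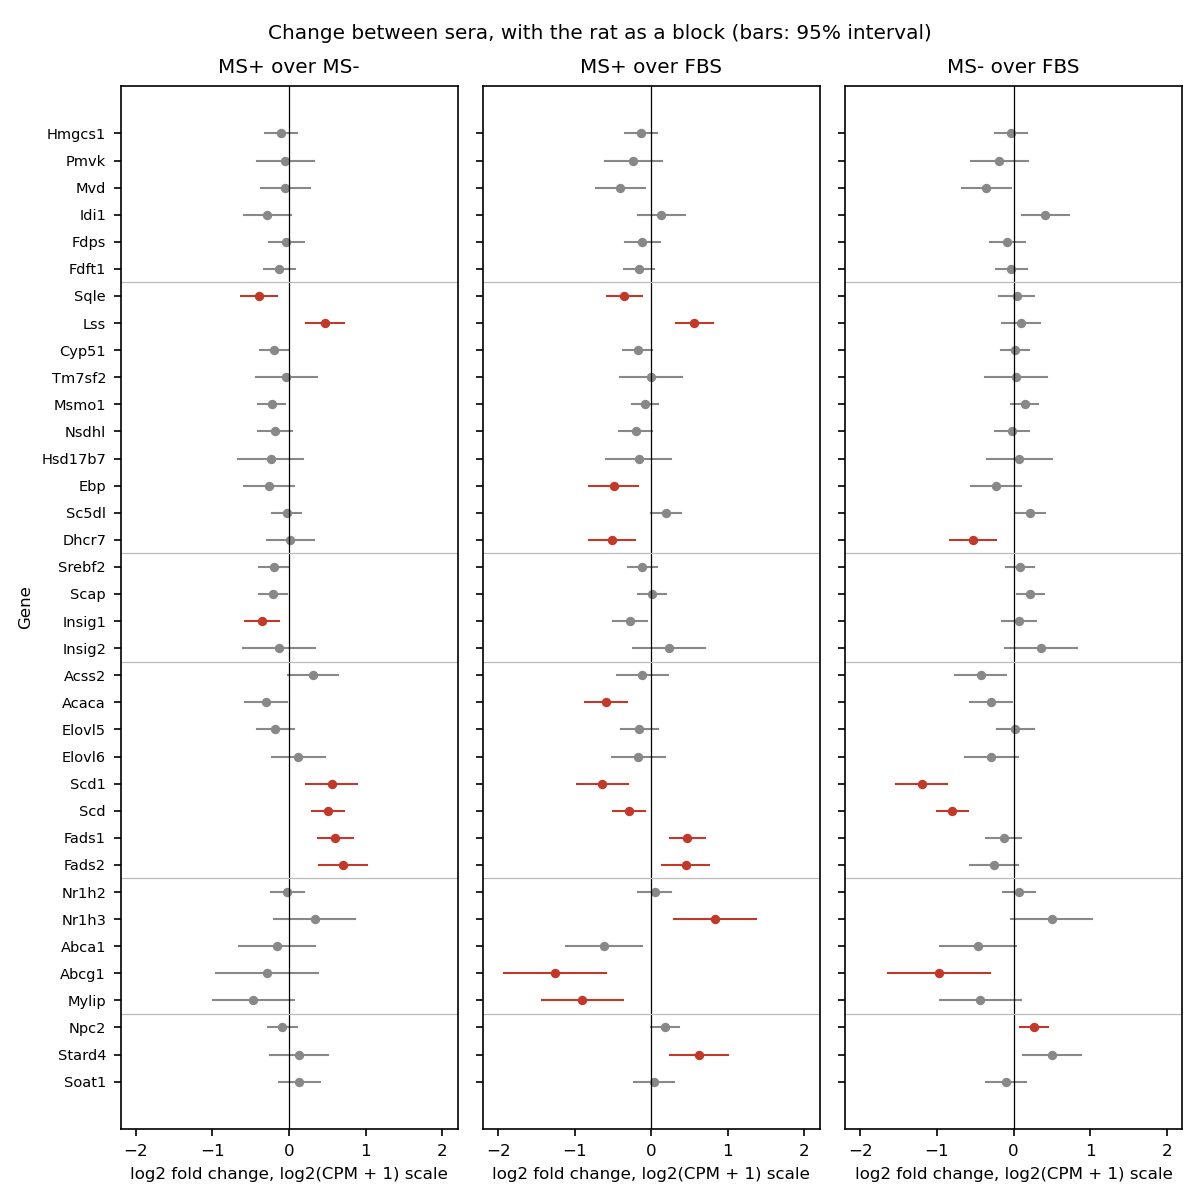
Log2 fold change of the 36 tested members (horizontal axes, log2(CPM + 1) scale) in the 3 comparisons, with the rat as a block; bars are 95% intervals, red marks an adjusted p under 0.05 over all 9820 features, and grey lines part the 6 roles. Red points number 7 in MS+ over MS-, 13 in MS+ over FBS and 5 in MS- over FBS.

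**Figure D3:**
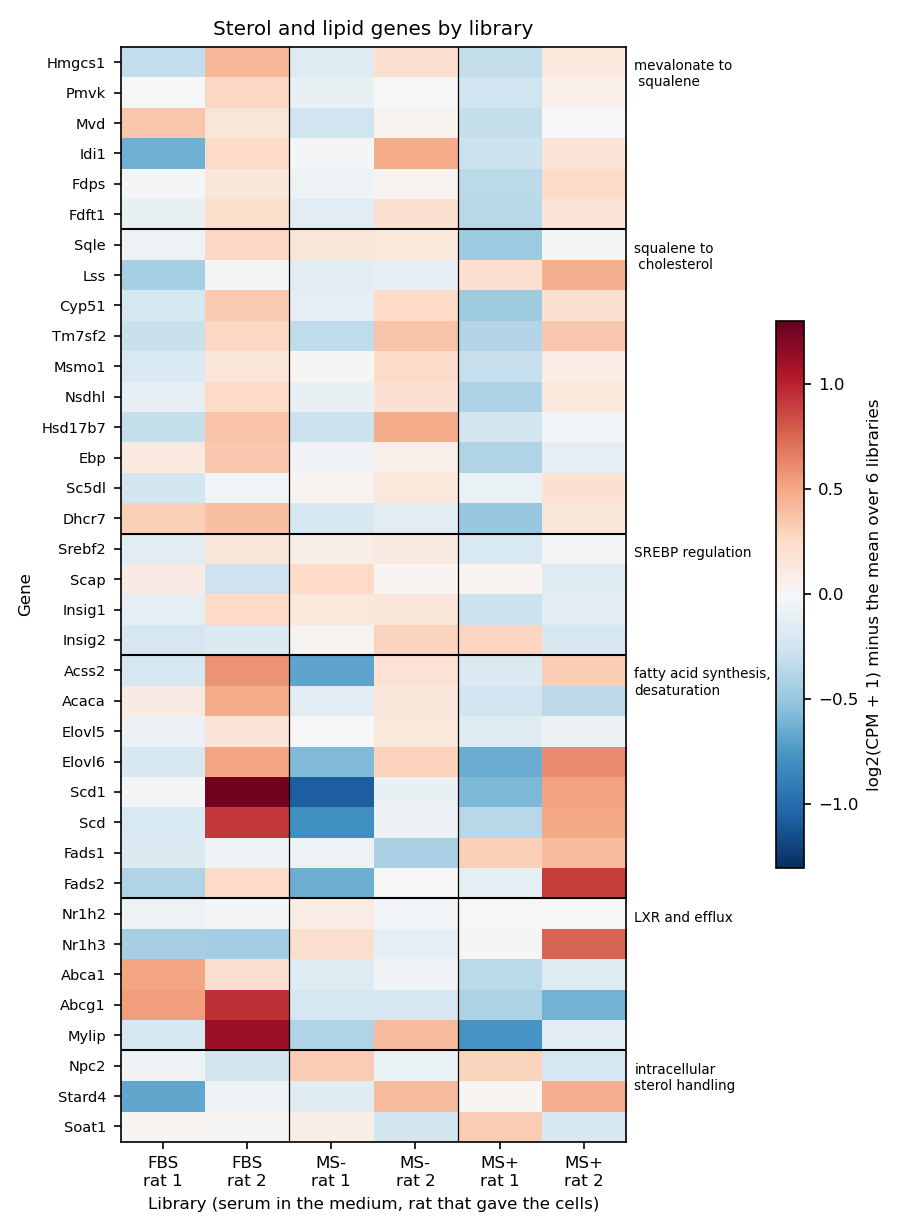
Each tested member (rows, grouped by role) in each library (columns) as log2(CPM + 1) minus its mean over the 6 libraries, from blue (lower) to red (higher). In most rows of the first 2 roles the column of rat 2 is redder than that of rat 1 within each serum.

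The cells of the 2 rats also differed in many of these genes. This comparison was chosen after the values were seen, and it has 1 rat on each side, so its p-values speak only of the 3 cultures of each rat. A difference between the rats cannot be told apart from one in culture or library handling that follows the replicate number. With serum in the fit, 18 of 36 members (50%) differed between the rats at an adjusted p under 0.05, against 10.5% of all features (1035 of 9820). Of the 18, 16 were higher and 2 lower in rat 2, while the 1035 features split into 537 and 498. In all 3 sera rat 2 was higher for 24 of 36 members (66.7%), against 21.4% of all features, and the median difference was 0.24 on the log2 scale for members and 0.00 for all features.

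Of the members, Scd1 was farthest apart between the rats. Scd1 was higher in rat 2 by 1.12 (SE 0.13, limma adjusted p 1.87e-05) and Scd by 0.90 (SE 0.08, adjusted p 1.09e-06). Elovl6 (0.95), Fads2 (0.77) and Acss2 (0.73) were the other members of the fatty acid group that passed. In the mevalonate group Hmgcs1 (0.52), Idi1 (0.61), Fdps (0.29) and Fdft1 (0.40) passed, and between squalene and cholesterol Cyp51 (0.54), Tm7sf2 (0.66), Msmo1 (0.33), Nsdhl (0.40) and Hsd17b7 (0.55) did. Mylip (0.92) and Stard4 (0.54) completed the 16. The 2 that were lower in rat 2 were Npc2 (-0.37) and Scap (-0.27).

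The count was 15 without the FBS cultures, 18 without those in MS+ and 10 without those in MS-, where 11%, 13.8% and 4.33% of all features passed, and edgeR gave 18. The summed adipocyte markers given above were also higher in rat 2 in each serum. They rested on 7 and 14 reads in FBS, 15 and 27 in MS- and 15 and 19 in MS+. Of these reads, Fabp4 held 0 and 9 in MS- and 0 and 6 in MS+. Lipe was higher in rat 2 in each serum (4 and 10 reads in FBS, 13 and 14 in MS-, 7 and 10 in MS+). Lep was lower in rat 2 in FBS (2 and 0 reads) and MS+ (6 and 3), and Plin1 in MS+ (2 and 0). The summed fibroblast markers were lower in rat 2 in FBS (88044 and 81191 CPM) and in MS+ (74049 and 71361). In MS- they were higher in rat 2 (62900 and 65497). The part of either set in the difference was not tested.

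**Figure D4:**
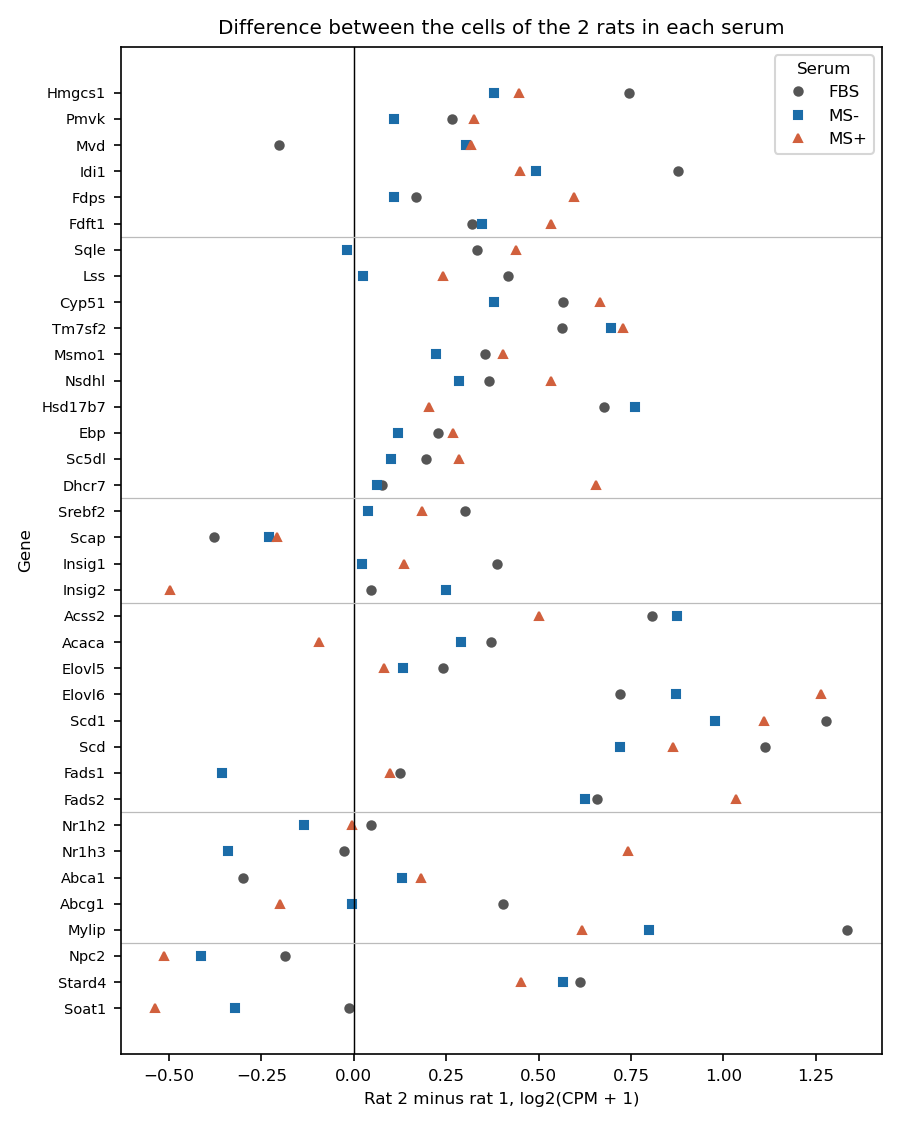
Rat 2 minus rat 1 on the log2(CPM + 1) scale (horizontal axis) for each tested member (vertical axis, by role), with 1 point per serum. Points of 24 members lie right of 0 in all 3 sera, and Scd1, Scd, Elovl6, Fads2 and Mylip lie farthest right.

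Further genes of sterol and lipid handling were taken from a second list of 53 names, of which 49 had a row and 39 were tested. Without the block 0 passed in MS+ over MS-, 4 in MS+ over FBS (3 higher, 1 lower, 10.3%, against 9.61% of all features) and 3 in MS- over FBS (1 higher, 2 lower, 7.69%, against 4.81%). With the block the counts were 7 (17.9%), 12 (30.8%) and 7 (17.9%), against 10.1%, 28.2% and 20.5% of all features. Ch25h, which makes the LXR ligand 25-hydroxycholesterol, measured 0.327 and 0.332 CPM in FBS, 0.915 and 0.542 in MS-, and 3.06 and 2.02 in MS+, a log2 fold change over FBS of 1.40 (adjusted p 0.0326). From 28 reads in MS+ and 4 in FBS, MS+ was 7.73 times FBS (exact 95% interval 2.7 to 30.3), and the gene passed the filter only through MS+.

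Tmem97, a sterol-regulated membrane protein, measured 64.3 and 69.8 CPM in FBS, 45.9 and 48.3 in MS-, and 75.3 and 82.4 in MS+. Its 3 groups did not overlap: it was at -0.50 in MS- over FBS (adjusted p 0.0475) and at 0.73 in MS+ over MS- (0.0917 without the block and 0.000377 with it). Mid1ip1, an activator of acetyl-CoA carboxylase, was at -0.76 in MS- over FBS (adjusted p 0.0336). In MS+ over FBS it was at -0.54 (limma adjusted p 0.0638 without the block and 0.00294 with it). Lpin3, a phosphatidate phosphatase, was at 0.64 in MS+ over FBS (0.0445). It was at 0.67 in MS+ over MS- (limma adjusted p 0.144 without the block and 0.00176 with it) and at -0.03 in MS- over FBS. Erlin1, a membrane protein that limits SREBP activation, was at -0.57 in MS+ over FBS (0.0487).

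2 members without a row of their name were found by accession under another symbol and lie outside the 37. Acat2, the cytosolic thiolase at the start of the pathway, is the row Acat3, which measured 62.5 and 82.9 CPM in FBS, 49.4 and 55.7 in MS-, and 28.8 and 59.1 in MS+. It was at -0.79 in MS+ over FBS (adjusted p 0.161 without the block and 0.00121 with it). Npc1, the lysosomal membrane partner of Npc2, is the row Cdig2, which measured 67.0 and 67.3 CPM in FBS, 96.0 and 89.7 in MS-, and 87.6 and 70.7 in MS+, at 0.46 in MS- over FBS (0.0938 and 0.00465).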

How the data were processed

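RNA of synovial fibroblast-like cells of 2 rats in 3 sera was sequenced on an Illumina instrument, and 1 table of 6 libraries was used. Per the submitters' processing notes and the study's methods, reads were aligned to rn4 with Bowtie2 2.1.0 and counted per transcript with HTSeq 0.5.4p3. The authors deposited these values as a signal in CPM, scaled by TMM. Whole reads were recovered from the value of 1 read (100% of values within 1e-06 reads). Coordinates are those of rn4, written 1-based.

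Features with 1 CPM or more in both libraries of at least 1 group were tested with limma 3.58.1 (lmFit, eBayes with a trend) under R 4.3.3. The two-sided test used log2(CPM + 1), with serum as the only term and all 6 libraries. Per the labels, cells coded RA1 and RA2 were used in each serum, which was read as the same 2 rats, so the numbers were taken to pair the libraries. The rat difference correlated across features by 0.494 to 0.616 between sera. The fit with the rat as a block is therefore given beside the main one. Values of recovered reads were also tested with edgeR 4.0.16 and DESeq2 1.42.0. Other alternatives were a pseudocount of 0.1, no filter, library totals, DESeq2 size factors, limma-voom and leaving out each library. Scripts were tested on simulated data.

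Members and lists were chosen with earlier results of these data known. Values in every library are given for members past the adjusted threshold in any comparison with or without the block, and for named regulators and enzymes. Of the second list, members past the unblocked threshold are named, except 1 that is not reported here. The exact intervals from reads and the floors cover counting error only, since reads carried no molecular identifiers. The other intervals are those of limma and rest on the spread between libraries. Promoters are RefSeq's, assembly GRCr8. P-values without the block measure the spread between the 2 cultures of a group, pooled over the 3 groups. With the block they measure how unequal the changes between sera are in the 2 rats. Neither can be read as a spread between serum donors, whose number the labels do not give. Strand use in counting is not given in the sources used here.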

Additional observations from a re-analysis of the deposited data

How the results depend on the processing

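With the replicate block, which left the medians of members as they were, limma called 7, 13 and 5 members in MS+ over MS-, MS+ over FBS and MS- over FBS (0, 1 and 0 without) and 987, 2773 and 2011 features (2, 944 and 472 without), and edgeR with the block called 7, 15 and 4 members and 1015, 2861 and 2073 features. Without the block, DESeq2 called 1 member (Fads1) and 123 features in MS+ over MS- and 0 members in MS+ over FBS, where it gave Abcg1 no adjusted p, and limma-voom called 4 features in MS+ over MS-. With no filter on low values the features called were 0, 586 and 255. By the rule of the study, members called in MS+ over FBS were 1, but 2 with edgeR, edgeR with the block and DESeq2. In MS- over FBS they were 0, but 1 with the replicate block, a pseudocount of 0.1, edgeR, DESeq2 and limma-voom, and 2 with edgeR and the block. Library totals moved the median of members in MS+ over FBS from -0.15 to -0.20. When each library was left out in turn, with the lone library of its group assumed to vary like the others, 0 members passed the adjusted threshold in any comparison. Features called were 0 in MS+ over MS-, 25 to 602 in MS+ over FBS and 105 to 280 in MS- over FBS, and members called by the rule of the study were 0 to 1, 1 to 2 and 0 to 4. The median of members ranged from -0.23 to 0.10, from -0.365 to 0.0525 and from -0.20 to 0.14. The sign of each median thus changed with the library left out, in unblocked fits where leaving out 1 library leaves the rats unbalanced. Within rat 1 and rat 2 the medians were -0.15 and -0.05 in MS+ over MS-, and -0.10 and -0.14 in MS+ over FBS. In MS- over FBS they were 0.04 and -0.11. The 25 named changes were chosen for passing in limma with or without the block, so their calls in the blocked limma fit follow from that choice. Only Abcg1 in MS+ over FBS was called without the block, so a kept call mostly means a change that stayed uncalled. Of 373 values for these 25 changes under up to 15 alternatives, 370 kept their direction and 316 their call. A further 48 became calls (47 with a block) and 6 lost it, all Abcg1. Those that turned were Scd in MS+ over FBS, at 0.266 without FBS replicate 2 and 0.142 without MS+ replicate 1 (range -0.847 to 0.266), and Fads2 in MS+ over FBS, at -0.0664 without MS+ replicate 2 (range to 0.967). Within rat 1 and rat 2, MS+ over FBS was -0.17 and -0.41 for Scd and 0.26 and 0.64 for Fads2. The count of members that differed between the rats fell from 18 to 10 without the MS- cultures. The causes of these shifts were not tested. With 2 libraries a group and about 1 read per 0.164 to 0.184 CPM, Abcg1 and Ch25h rest on few reads.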
